A study of Sus scrofa with 16 samples.

Results

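Of 8 listed genes of T cells and natural killer (NK) cells, CD2, CD3D, CD3E, CD3G, CD4, CD5, CD8A and GZMK, 6 were measured in the subcutaneous fat of 16 young pigs, out of 4554 named genes measured there. Members were all array probes that carry one of these gene names and are not controls, and a probe was used where 8 or more of the 16 arrays showed it well above background. This gave 12 probes by name, of which 9 were used: 2 each for CD3D, CD3G and CD8A and 1 each for CD2, CD3E and GZMK. Subcutaneous adipose tissue was taken at 20 kg body weight from 8 pigs of the low-RFI strain (RFIneg) and 8 of the high-RFI strain (RFIpl), all given feed ad libitum, with 1 Agilent 1-colour array per pig. Residual feed intake (RFI) is the part of feed intake that growth and maintenance do not account for. Whole tissue was homogenised, so fewer cells of a type and less RNA per cell cannot be told apart.

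T cells recognise antigen through a receptor that signals through associated chains, among them CD3 delta, epsilon and gamma, encoded by CD3D, CD3E and CD3G. CD4 and CD8A encode co-receptors found on helper and cytotoxic T cells, and CD2 is an adhesion receptor of T and NK cells. CD5 is a co-receptor that damps receptor signalling, and GZMK is a granzyme, a protease of cytotoxic granules. Fat tissue holds resident T cells among its stromal cells, and their number is known to change with inflammation.

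The sequences of the probes matter here because probes of the same gene did not always give the same picture. The names first and second are used for the CD3D probes A_72_P014531 and A_72_P504254, the CD3G probes A_72_P088461 and A_72_P761021, and the CD8A probes A_72_P077466 and A_72_P685866. The second CD3D probe and a further CD3D probe, A_72_P185936, overlap on the same reference transcript and share the 8 bases in capitals. The second was well above background on 16 arrays and the further one on 3.
CD3D A_72_P504254: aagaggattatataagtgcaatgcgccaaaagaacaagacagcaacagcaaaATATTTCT
CD3D A_72_P185936: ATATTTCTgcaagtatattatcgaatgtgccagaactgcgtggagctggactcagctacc

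For CD3G, the first probe followed the other T cell genes over the pigs and the second did not. They start at bases 344 and 615 of their target by the files. The first is printed whole and the second by its first 30 bases. The CD2 probe, the only one used for that gene, follows.
CD3G A_72_P088461: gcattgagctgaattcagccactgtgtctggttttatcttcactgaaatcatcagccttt
CD3G A_72_P761021: tcagaaagaaagcaatacattttggaacaa
CD2 A_72_P178131: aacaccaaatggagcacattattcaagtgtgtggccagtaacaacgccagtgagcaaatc

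Some libraries stood apart, and some libraries carried markers of other tissues or cells. The summed linear level of 9 skeletal muscle genes, in units of the array's 75th percentile signal, was 1607 on low-RFI replicate 8, against 12.3 to 29.7 on the other 15 arrays. That of 6 skin epithelium genes ranged from 0.720 to 3.58 in low-RFI and from 1.08 to 23.3 in high-RFI pigs, highest on high-RFI replicate 6. KRT5, KRT14, KRT15 and KRT18 of that list were not measured, and from which epithelium its signal came was not tested. The 7 macrophage genes summed to 8.36 to 19.8 in low-RFI and 9.46 to 52.4 in high-RFI pigs, highest on high-RFI replicate 5. The 9 adipocyte genes ranged from 1026 to 1409 in low-RFI and from 1048 to 1388 in high-RFI pigs. Well above background were 68.7% to 80.3% of spots, and array pairs correlated at 0.944 to 0.989 across probes.

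The labels number the pigs of each line from 1 to 8 without saying what the number stands for. Replicates 5 to 8 and replicates 1 to 4 are described as separate sets here. In limma, 5.18% of the 32097 probes passed an adjusted p of 0.05 between these sets (1662 probes).

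Transcripts of the T and NK cell genes were low in this tissue but measurable for 6 of the 8 genes. Levels are log2 signals relative to the array's 75th percentile, which is 0. The 9 probes averaged between -4.43 and -2.41 over the 16 arrays, and their processed signals lay between 4.63 and 243 intensity units, where the dimmest spot called well above background had 5.07 to 9.73 units depending on the array. They therefore sit in the dim part of the array, where precision is limited.

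The CD3 chains were the best covered group. The first CD3D probe ranged from -3.44 to -1.96 with a median of -2.36 in low-RFI pigs, and from -2.97 to -0.84 with a median of -2.40 in high-RFI pigs. The second CD3D probe ranged from -5.68 to -3.94 (median -4.54) in low-RFI and from -4.78 to -2.85 (median -4.19) in high-RFI pigs. On both probes the highest pig was high-RFI replicate 5 and the lowest low-RFI replicate 8, and the lines overlapped.

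CD3E, which carries a signalling motif of the receptor complex, ranged from -6.73 to -3.29 (median -3.57) in low-RFI pigs and from -4.14 to -1.67 (median -3.35) in high-RFI pigs. The low end came from low-RFI replicate 7, at 4.63 intensity units and the only array where this probe was not well above background, and from low-RFI replicate 8 at -5.42. The other 6 low-RFI pigs lay between -3.76 and -3.29.

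The first CD3G probe ranged from -4.14 to -2.67 (median -3.02) in low-RFI and from -4.20 to -1.18 (median -3.29) in high-RFI pigs. The second ranged from -6.67 to -3.00 (median -3.62) in low-RFI and from -4.97 to -2.65 (median -4.10) in high-RFI pigs. High-RFI replicate 5 held the highest value on the first probe and stood at -4.51, rank 12 of 16, on the second.

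The co-receptor CD8A also differed between its probes in spread. The first ranged from -3.58 to -2.41 (median -2.91) in low-RFI and from -3.69 to -1.34 (median -2.90) in high-RFI pigs. The second kept to a narrow band, from -5.02 to -4.13 (median -4.32) in low-RFI and from -4.68 to -3.89 (median -4.44) in high-RFI pigs.

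CD2 ranged from -4.87 to -3.48 (median -4.18) in low-RFI pigs and from -4.86 to -1.68 (median -3.93) in high-RFI pigs. GZMK ranged from -5.51 to -3.76 (median -4.21) in low-RFI and from -5.13 to -2.94 (median -3.50) in high-RFI pigs. The lines overlapped on all 9 probes, and 0.0125% of all probes did not overlap. High-RFI replicate 5 was the highest pig for 7 of the 9 probes. The exceptions were the second CD3G probe and GZMK, where its rank was 3 of 16. The share of all probes that were highest on this pig is not given here. The 7 probes, of CD2, CD3D, CD3E, CD3G and CD8A, covaried over the pigs and are not separate observations.

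**Figure D1:**
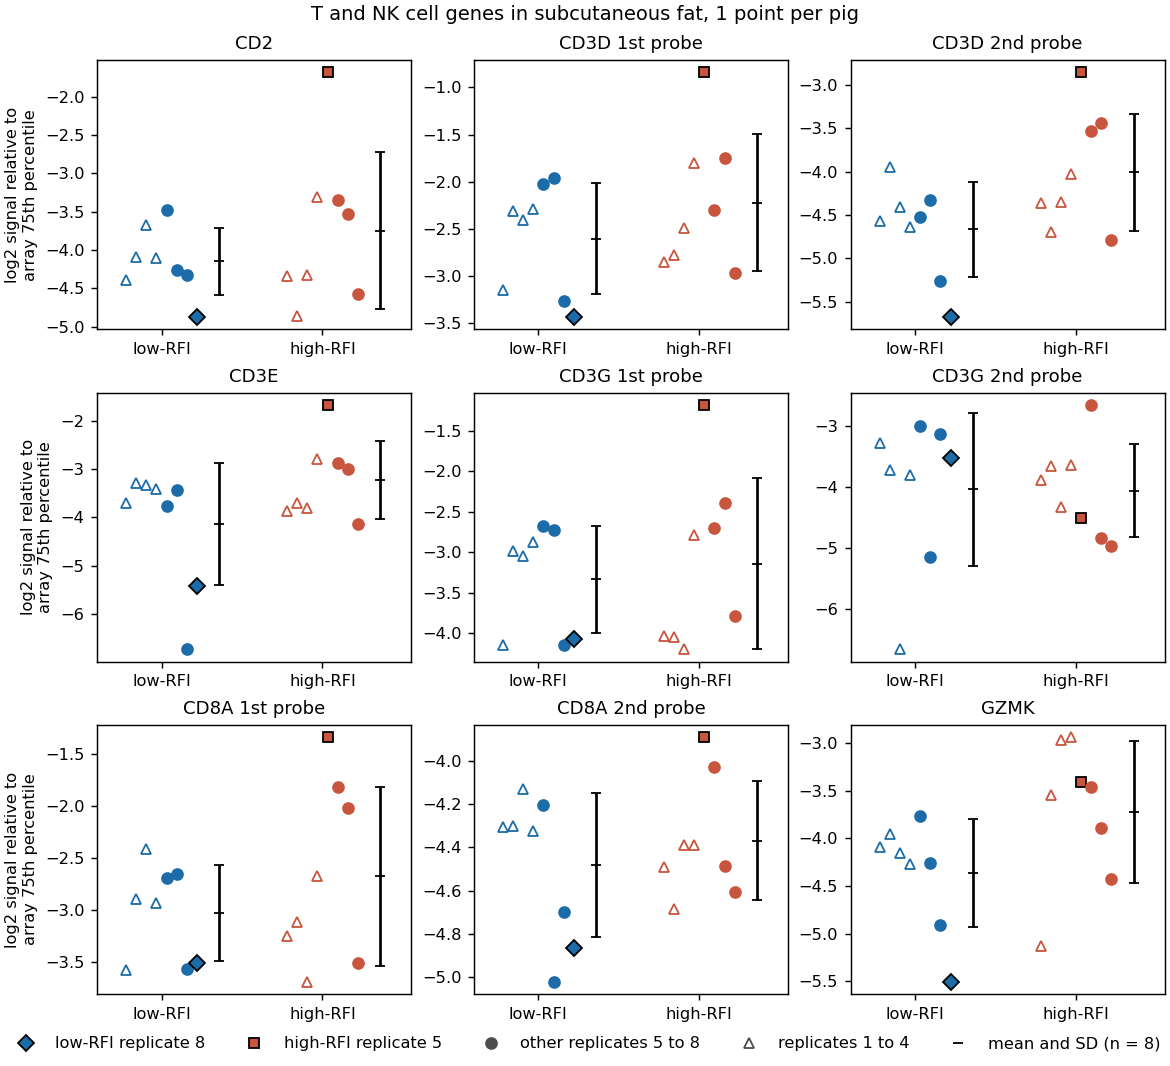
Log2 signal relative to the array's 75th percentile for the 9 probes, 1 panel each with its own vertical range, low-RFI pigs left and high-RFI pigs right, with the mean and SD (n = 8) beside each line. High-RFI replicate 5 (square) tops 7 of the 9 panels, low-RFI replicate 8 (diamond) is lowest in 4, and the lines overlap in all 9.

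CD4 and CD5 could not be followed. One CD4 probe, A_72_P077421, was well above background on 7 arrays (3 low-RFI and 4 high-RFI), just outside the minimum of 8, and the other CD4 probe on 1 array. No probe carried the name CD5. A probe described in the files as CD5 antigen but named NP276502 was well above background on 5 arrays and lies outside the rule. So does a probe described as CD2 but not named so, A_72_P131826, which was well above background on 11 arrays (5 low-RFI and 6 high-RFI) and, like the CD2 probe used, highest on high-RFI replicate 5, at -3.21. Just inside the minimum no member probe was found, since the least detected probes used, those of CD3E and the second CD3G probe, were well above background on 15 arrays. On the CD4 probe A_72_P077421 high-RFI replicate 5 was again highest, at -4.28, while low-RFI pigs ranged from -6.79 to -5.55 and the other 7 high-RFI pigs stood at -5.75 or lower. The other CD4 probe was highest on high-RFI replicate 8, at -3.76, the array where it was well above background, and stood at -5.50 on high-RFI replicate 5.

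The 6 genes moved together from pig to pig. With 1 probe per gene, the one with the higher mean signal, the 15 gene pairs had Pearson correlations over the 16 arrays from 0.42 to 0.93, with a median of 0.74. For CD3G this is the first probe. By permutation test (two-sided, 100000 resamples, adjusted over all 36 probe pairs) 12 of the 15 pairs passed an adjusted p of 0.05. By Spearman's rank correlation, with a median of 0.80, 13 did. The share that passes among pairs of other probes is not given here. The members were chosen with earlier results of these data known, so these counts are a description. Without the 2 arrays farthest from the median of the first gene of each pair the median was 0.69 and the range 0.28 to 0.89.

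The closest pair was CD3D with CD3G, which lie next to each other in the RefSeq annotation of the Sscrofa11.1 assembly, where CD3E is the other neighbour of CD3D. Their first probes had r = 0.93. CD8A with CD3G, from different chromosomes, had r = 0.92, and CD2, on a further chromosome, had r = 0.89 with CD3G. GZMK was the loosest member, with r = 0.42 with CD3G and with CD8A, and r = 0.67 with CD3E.

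By its median, the covariation was also present within each line and each set of replicates, but not for every GZMK pair. The median over the 15 pairs was 0.75 in low-RFI pigs and 0.91 in high-RFI pigs. It was 0.89 in replicates 5 to 8 and 0.75 in replicates 1 to 4. In replicates 1 to 4 GZMK had r = -0.06 with CD8A, the lowest pair, and 0.07 with CD3G. There it had 0.22 with CD2, 0.39 with CD3E and 0.49 with CD3D. Its r with the other genes ran from 0.24 to 0.47 in high-RFI and from 0.61 to 0.80 in low-RFI pigs. In replicates 5 to 8 it ran from 0.82 to 0.87. After removal of the 4 means of line and replicate set the median over the 15 pairs was 0.80. Without high-RFI replicate 5 the median was 0.65, without low-RFI replicate 8 it was 0.72, and without both 0.60. All points share the array and its scaling. Normexp background correction, which here added an offset of 50 units to every signal, raised the median to 0.93. The member probes had processed signals of 4.63 to 243 units, so this rise is not read as closer covariation of the genes.

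The second CD3G probe did not take part. Its correlations with the other 8 probes ran from -0.26 to 0.04, and 0 of 8 passed the adjusted threshold in the permutation test (0 of 8 by Spearman's rank correlation). With the first CD3G probe its r was -0.20, whereas the paired probes of CD3D had r = 0.86 and those of CD8A r = 0.57. The second CD3G probe was lowest on low-RFI replicate 3, at -6.67, where the first stood at -3.05. Under normexp correction its correlations with the other 8 probes became 0.67 to 0.92, and the other 28 pairs had 0.80 to 0.98. With the offset added to these dim signals, those values cannot show whether the probe stood apart.

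**Figure D2:**
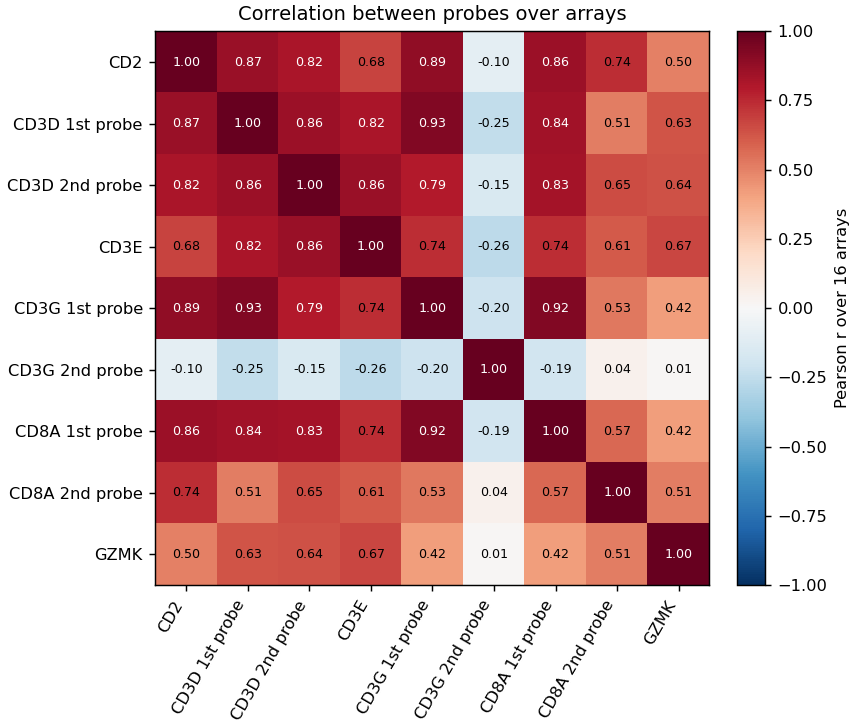
Pearson r over the 16 arrays between the 9 probes, each cell with its value. The second CD3G probe stands apart, with values between -0.26 and 0.04, while the other 28 pairs range from 0.42 to 0.93.

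The mean of the 6 genes, each centred on its own mean over arrays, summarises the pigs. In low-RFI pigs it was -0.48, 0.11, 0.19, 0.05, 0.30, 0.15, -1.13 and -1.11 for replicates 1 to 8. In high-RFI pigs it was -0.55, -0.31, -0.22, 0.65, 1.68, 0.61, 0.60 and -0.54. All 6 genes were above their own mean on high-RFI replicates 4, 5, 6 and 7, and all 6 were below it on low-RFI replicates 1, 7 and 8 and on high-RFI replicates 1 and 8. Both lines therefore hold pigs at the low end, and the 4 highest pigs are high-RFI. The low-RFI mean was -0.24 ± 0.59 and the high-RFI mean 0.24 ± 0.78 (SD, n = 8 each), or 0.03 ± 0.56 (SD, n = 7) in high-RFI pigs without replicate 5.

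**Figure D3:**
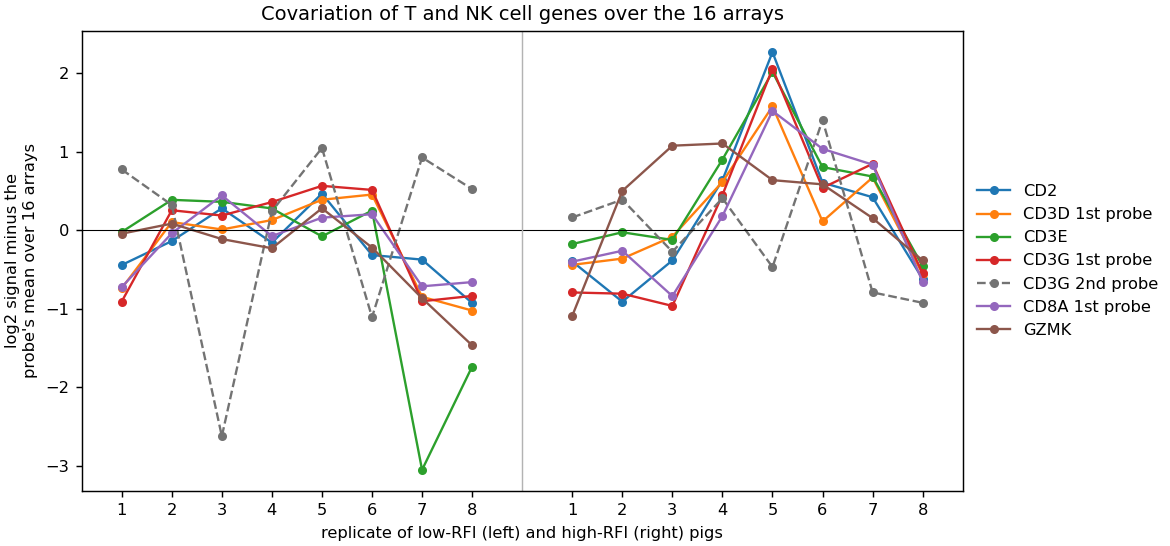
Log2 signal of each probe minus its mean over the 16 arrays, by replicate, low-RFI pigs left and high-RFI pigs right. The 6 genes are all above their means on high-RFI replicate 5, where their mean is 1.68, and are low on low-RFI replicates 7 and 8, at -1.13 and -1.11, while the second CD3G probe (dashed) follows another course.

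The 10 genes whose pattern over the arrays was most like this mean were sought among 4442 other named genes, whose median r with it was -8.5e-04. Of these genes 31 had r above 0.8. Highest were ICOS, a co-stimulator of activated T cells (r = 0.95), SIT1, an adaptor of T cell receptor signalling (0.94), ICAM3, a leukocyte adhesion molecule (0.93), and LCK, the kinase that starts T cell receptor signalling (0.92). ARHGAP30, a GTPase-activating protein, and the interleukin 12 receptor chain IL12RB1 had r = 0.89. CXCL9 and CXCL10, interferon-induced chemokines that attract T cells, and SLA2, an adaptor that damps receptor signalling, had 0.88. After removal of the means of line and replicate set these 10 genes kept r between 0.84 and 0.95, and without high-RFI replicate 5 between 0.80 and 0.91. These likeness values are a description, since the genes were picked for them.

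Between the lines, low-RFI pigs had lower means on 8 of the 9 probes, and none of the 9 passed an adjusted p of 0.05. The log2 differences given are those of low-RFI minus high-RFI pigs. The median over the 9 probes was -0.38, against -1.2e-04 over all 32097 probes, of which 50% were below 0. The call rate over all probes was 0.0% at an adjusted p of 0.05 and 3.68% at an unadjusted p of 0.05 in limma, and 1 of the 9 member probes was under the latter. All 9 adjusted p were 1.0 in limma.

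CD3E had a mean signal of -4.13 ± 1.26 in low-RFI pigs and of -3.23 ± 0.81 in high-RFI pigs (SD, n = 8 each), which differed by -0.90 with a 95% interval from -1.94 to 0.13. Without low-RFI replicate 7 the difference was -0.53 and without low-RFI replicate 8 it was -0.72. The second CD3D probe had a mean signal of -4.67 ± 0.55 in low-RFI pigs and of -4.01 ± 0.68 in high-RFI pigs (SD, n = 8 each), which differed by -0.66 (95% interval -1.27 to -0.05). It was the only member under an unadjusted p of 0.05 in limma (p = 0.035), and the exact permutation test over the pigs gave p = 0.0503 (two-sided). The value lay below the high-RFI mean in 7 of 8 low-RFI pigs.

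GZMK had a mean signal of -4.36 ± 0.57 in low-RFI pigs and of -3.72 ± 0.75 in high-RFI pigs (SD, n = 8 each), which differed by -0.64 (95% interval -1.30 to 0.01). All 8 low-RFI pigs lay below the high-RFI mean, but the lines overlapped: high-RFI replicates 1, 7 and 8 stood at -5.13, -3.89 and -4.43, inside the low-RFI range. The exact permutation p was 0.0733 (two-sided). GZMK was also the member least touched by high-RFI replicate 5, with -0.60 (95% interval -1.30 to 0.10) without it.

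The other probes were closer to 0. CD2 differed by -0.40 (95% interval -1.17 to 0.37), the first CD3D probe by -0.38 (-1.03 to 0.27) and the first CD8A probe by -0.35 (-1.04 to 0.33). The first CD3G probe differed by -0.19 (-1.06 to 0.68), the second CD8A probe by -0.11 (-0.43 to 0.20) and the second CD3G probe by 0.03 (-0.99 to 1.04). A 2-fold lower level in low-RFI pigs is -1 on this scale and lies inside the intervals of CD2, CD3E, GZMK, both CD3D probes and the first probes of CD3G and CD8A. It lies outside those of the second CD3G and CD8A probes.

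The shift was smaller without the highest pig. Without high-RFI replicate 5 the median over the 9 probes was -0.16, with 8 of 9 below 0 where 50.3% of all probes were, and 0 under an unadjusted p of 0.05 in limma, against 4.08% of all probes. CD2 then differed by -0.11, the first CD3D probe by -0.18, the second by -0.50, CD3E by -0.68, the CD3G probes by 0.09 and -0.04, and the CD8A probes by -0.16 and -0.04. The first CD3G probe thus changed sign. Without low-RFI replicate 8, the array with the muscle transcripts, the median was -0.28, and all 9 probes were below 0, where 46.8% of all probes were. With slide as a block the median was -0.38, and within slides 1 to 4, each with 2 pigs of each line, it was -0.24, -0.77, -0.49 and -0.10.

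Other lists were high on high-RFI replicate 5 too. Their centred means there were 1.54 for T cell chemokines and receptors, 1.37 for macrophage and monocyte genes and 1.21 for lymph node stroma and lymphatic vessel genes, while B and plasma cell genes stood at -0.06. Relative to the average of all 15 other arrays, the macrophage genes CD163 and C1QA were higher by 2.16 and 2.43 on it, and CXCL9 by 3.51. Of the B and plasma cell list 3 of 16 genes were measured and MS4A1 and CD79A were not among them. On low-RFI replicate 7, low for the members, the macrophage list was at -0.91 and the lymph node list at -0.79. The part of other cells in the members' difference was not tested.

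The line difference was also taken within each set of replicates. In replicates 5 to 8, 8 of 9 probes were lower in low-RFI pigs, where 50.1% of all probes were, with a median of -0.89. None passed an adjusted p of 0.05 in limma, a call that 0.0% of all probes reached, and 2 of 9 were under an unadjusted p of 0.05, against 5.48% of all probes. The median there was -0.44 without high-RFI replicate 5 and -0.66 without low-RFI replicate 8, each with 0 of 9 under the unadjusted threshold, against 4.56% and 4.1% of all probes in those fits. It was -1.31 without high-RFI replicate 8, with 7 of 9 under it, against 7.03% of all probes. In replicates 1 to 4, 4 of 9 were lower, where 51.5% of all probes were, with a median of 0.11. There 0 of 9 were under an unadjusted p of 0.05 in limma, against 5.63% of all probes, and 0.0156% of all probes passed the adjusted threshold, none of them a member. Without high-RFI replicate 2 the median there was -0.07, and without high-RFI replicate 4 it was 0.25.

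CD3E had the largest difference of the 9 probes in replicates 5 to 8. In replicates 5 to 8 it stood at -3.76, -3.43, -6.73 and -5.42 in low-RFI pigs, against -1.67, -2.88, -3.00 and -4.14 in high-RFI pigs. In replicates 1 to 4 it stood at -3.70, -3.29, -3.32 and -3.40 in low-RFI pigs, against -3.86, -3.71, -3.81 and -2.78 in high-RFI pigs. The differences were -1.91 (95% interval -3.71 to -0.11) in replicates 5 to 8, with an adjusted p of 0.845 in limma, and 0.11 (-0.45 to 0.67) in replicates 1 to 4. Without low-RFI replicate 7, where this probe was not well above background, that of replicates 5 to 8 was -1.28 (-2.84 to 0.27).

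The second CD3D probe stood at -4.52, -4.33, -5.26 and -5.68 in low-RFI pigs of replicates 5 to 8, against -2.85, -3.53, -3.44 and -4.78 in high-RFI pigs. Its difference there was -1.29 (95% interval -2.32 to -0.27; limma adjusted p = 0.845), with all 4 low-RFI pigs below the high-RFI mean and the groups overlapping. In replicates 1 to 4 it was -0.03 (-0.48 to 0.42).

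GZMK was lower in low-RFI pigs on average in both sets, with -0.82 in replicates 5 to 8 and -0.47 in replicates 1 to 4, with intervals that included 0. The other covarying probes differed by -0.95 (CD2), -0.71 (first CD3D probe), -0.89 (first CD3G probe), -0.93 (first CD8A probe) and -0.45 (second CD8A probe) in replicates 5 to 8. In replicates 1 to 4 those differences were 0.15, -0.06, 0.50, 0.23 and 0.22 in the same order. The second CD3G probe went the other way, with 0.54 and -0.49.

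Among the 9 probes and both sets, the lines failed to overlap for the second CD8A probe in replicates 1 to 4. Of all probes 3.63% failed to overlap in replicates 1 to 4 and 2.91% in replicates 5 to 8. For that CD8A probe low-RFI pigs stood at -4.31, -4.30, -4.13 and -4.33, and high-RFI pigs at -4.49, -4.68, -4.39 and -4.39. The exact permutation p was 0.0286, the smallest that 4 pigs against 4 allow, and the limma adjusted p was 0.911.

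Whether the line differences of both sets differ was tested as an interaction, replicates 5 to 8 minus replicates 1 to 4. It was below 0 for 8 of 9 member probes, where 49.7% of all probes were, with a median of -1.10. None passed an adjusted p of 0.05 in limma, as for 0.0% of all probes, and 3 of 9 were under an unadjusted p of 0.05, against 6.81% of all probes. These were the second CD8A probe at -0.67 (95% interval -1.22 to -0.11), the second CD3D probe at -1.27 (-2.37 to -0.16) and CD3E at -2.02 (-3.89 to -0.15), with limma adjusted p of 0.716, 0.722 and 0.724. Without low-RFI replicate 7 the interaction of CD3E was -1.39 (-2.93 to 0.15). Without high-RFI replicate 5 the median was -0.57 and 1 of 9 was under the unadjusted threshold, against 6.14% of all probes. Without low-RFI replicate 8 it was -0.89, also with 1 of 9, against 5.68%, and without high-RFI replicate 8 it was -1.53, with 6 of 9, against 7.59%.

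Over both lines together, no difference between the sets was called for these genes. The difference, replicates 5 to 8 minus replicates 1 to 4, was above 0 for 6 of 9 probes, where 45.2% of all probes were, with a median of 0.15. It was -0.00607 without high-RFI replicate 5 and 0.30 without high-RFI replicate 8. Of the 9 probes 0 passed an adjusted p of 0.05 and 0 were under an unadjusted p of 0.05 in limma, against 23.5% of all probes under the latter. The interval was widest for CD3E, from -1.45 to 0.66 around -0.39, and narrowest for the second CD8A probe, from -0.42 to 0.22 around -0.10.

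**Figure D4:**
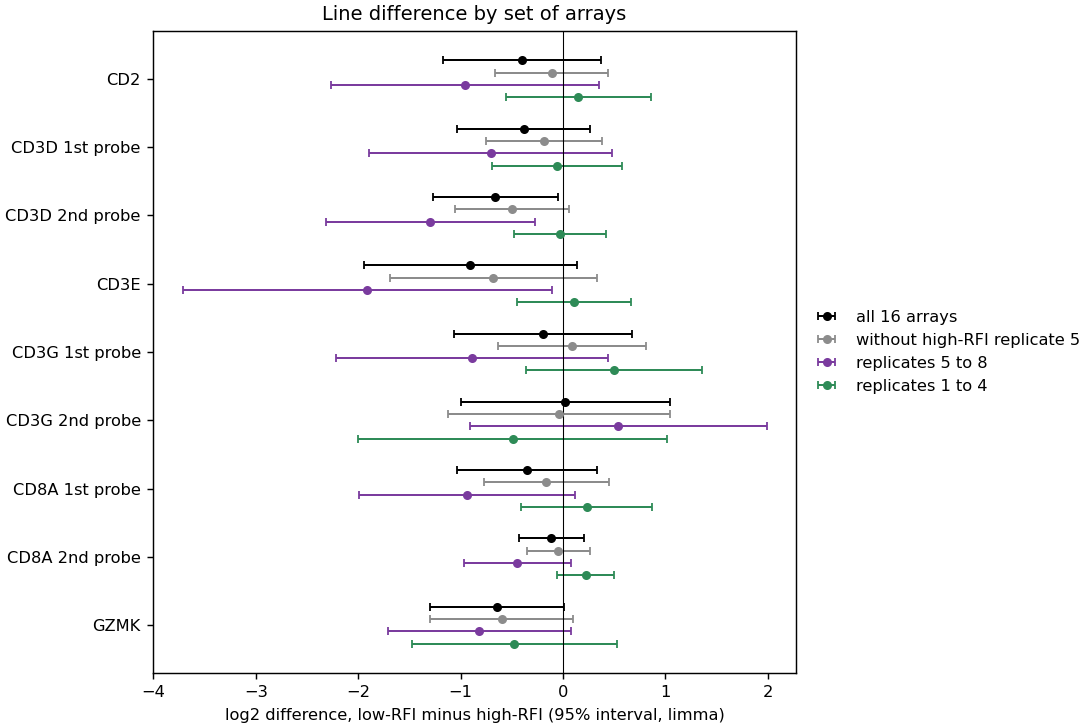
Log2 difference, low-RFI minus high-RFI, with its 95% interval in limma for each probe: all 16 arrays (black), without high-RFI replicate 5 (grey), replicates 5 to 8 (purple) and replicates 1 to 4 (green). The intervals that exclude 0 are those of the second CD3D probe over all arrays (-1.27 to -0.05) and in replicates 5 to 8 (-2.32 to -0.27), and of CD3E in replicates 5 to 8 (-3.71 to -0.11). Without low-RFI replicate 7 (not drawn) that of CD3E in replicates 5 to 8 included 0 (-2.84 to 0.27).

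Other genes of T and NK cells were counted by list, with 0 passing an adjusted p of 0.05 between lines in limma in any list below. Of 9 measured genes of the T cell receptor complex and its signalling, 6 were lower and 3 higher in low-RFI pigs, with a median difference of -0.30. LCK had a mean of -3.32 ± 0.51 in low-RFI and -2.84 ± 0.93 in high-RFI pigs (SD, n = 8 each), a difference of -0.48 (SE 0.35), SIT1 differed by -0.40 (SE 0.31) and LEF1, a transcription factor of T cell development, by -0.22 (SE 0.12). Among the 3 higher was CD247, at 0.07 (SE 0.18), whose r with the mean of the 6 genes was -0.23. The list's median without high-RFI replicate 5 was -0.17, with 6 of 9 lower, and LCK differed by -0.25 and SIT1 by -0.17.

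Of 14 cytotoxic and NK cell genes, 11 were lower and 3 higher, with a median of -0.13. FCGR3A, an Fc receptor of NK cells and macrophages, differed by -0.43 (SE 0.24), IFNG, interferon gamma, by -0.39 (SE 0.26) and TYROBP, a signalling adaptor of NK and myeloid cells, by -0.36 (SE 0.24). These were -0.24, -0.23 and -0.19 without high-RFI replicate 5, in the same order, and 9 of the 14 were lower, with a median of -0.05. Of 14 T cell chemokines and receptors, 12 were lower, with a median of -0.33. CXCL9 differed by -1.18 (SE 0.57) and ITGB2, an integrin chain of leukocytes, by -0.52 (SE 0.29). Without high-RFI replicate 5, 11 were lower, with a median of -0.19, and ITGB2 differed by -0.31.

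Of 12 T cell cytokines and receptors, 10 were lower, with a median of -0.12. IL12RB1 differed by -0.61 (SE 0.30), TGFB1 by -0.20 (SE 0.17) and TNF by -0.17 (SE 0.09). Of the 12, 6 were lower without high-RFI replicate 5, with a median of -0.04, and IL12RB1 differed by -0.38. Without low-RFI replicate 8, 7 were lower, with a median of -0.04, and TGFB1 differed by -0.09. In replicates 5 to 8 the medians of these 4 lists, in the order given, were -0.76, -0.50, -0.78 and -0.24, and in replicates 1 to 4 they were 0.09, 0.06, -0.03 and 0.07.

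Markers of other cells were compared in the same way, and their 2 highest genes are given as values. The macrophage list had 5 of 7 lower and a median of -0.19, with CD163 at 0.08 (SE 0.41) and C1QA at -0.19 (SE 0.37). Without high-RFI replicate 5, 4 of 7 were lower, with a median of -0.00859, CD163 stood at 0.38 and C1QA turned to 0.13. Without low-RFI replicate 8 the macrophage median was -0.09 and C1QA stood at -0.09. Of the 8 neutrophil and mast cell genes 5 were lower, with KIT at -0.11 (SE 0.29) and S100A12 at -0.81 (SE 0.52). The lymph node and lymphatic list had 3 of 6 lower, with CLDN5 at -0.30 (SE 0.24), or -0.19 without high-RFI replicate 5, and CCL21 at 0.41 (SE 0.39). The B cell genes VPREB3 and PAX5 differed by -0.36 (SE 0.37) and -0.00123 (SE 0.13), and the blood and platelet genes GP9 and HBE1 by 0.03 (SE 0.07) and 0.13 (SE 0.51), with HBE1 at 0.24 without high-RFI replicate 5.

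In the skin epithelium list all 6 genes were lower in low-RFI pigs, with KRT8 at -1.53 (SE 0.58) and SFN at -1.27 (SE 0.57). All 9 skeletal muscle genes were higher, with ACTA1 at 0.28 (SE 0.64) and CKM at 0.69 (SE 0.78), and a median of 1.11. Without low-RFI replicate 8 the muscle median was 0.19 with 7 of 9 higher, and ACTA1 turned to -0.38 and CKM to -0.10. In replicates 1 to 4, 4 of the 9 muscle genes were higher, with a median of -0.00235. The adipocyte genes FABP4 and ADIPOQ differed by 0.00234 (SE 0.08) and -0.01 (SE 0.11).

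**Figure D5:**
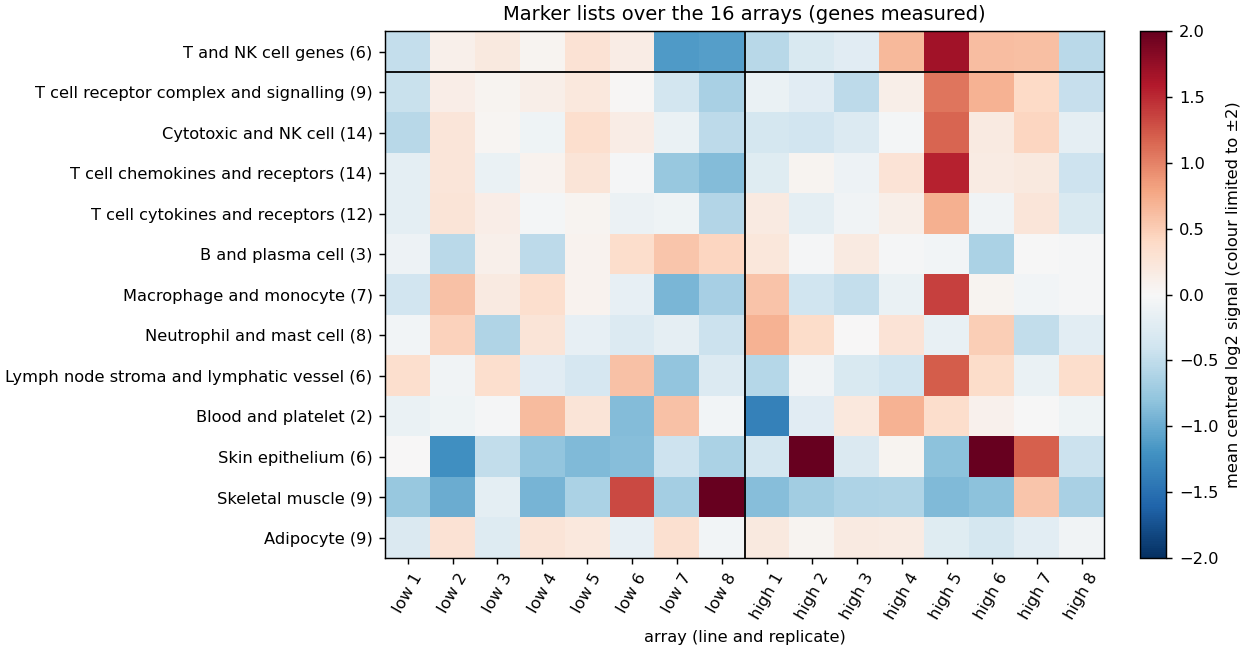
Mean centred log2 signal of the 6 T and NK cell genes (top row) and of 12 marker lists on the 16 arrays, low-RFI left and high-RFI right, with colour limited to 2 on either side of 0. High-RFI replicate 5 is raised for the T and NK cell genes (1.68), T cell chemokines (1.54) and macrophage genes (1.37), and low-RFI replicate 8 for skeletal muscle (7.35).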

How the data were processed

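RNA from 1 pig was hybridised to each array. Per the labels' protocols, 150 ng of total RNA was amplified and labelled with Cy3. The deposited processed intensity of each spot had been background subtracted and detrended by Agilent Feature Extraction 10.7.3.1, per the file headers, and the deposited mean and background intensities had not. The deposited log2 table held, for 28963 spots, log2 of that signal after subtraction of each array's median over those spots (r = 1). R 2.10.0 stands in the submitters' processing notes.

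Here each array's 75th percentile was subtracted from the log2 signal, and outlier spots were dropped. Probes well above background on at least 8 of 16 arrays, with at least 6 values per line, were kept (32097 of 43603). For lines and replicate sets the tests were two-sided, by limma 3.58.1 (R 4.3.3), with Benjamini-Hochberg adjustment over all kept probes. On simulated data with normal noise, 80.6% of 2-fold line differences and 8.96% of 2-fold interactions were recovered, for probes picked at random. The member probes were not simulated as a set, so these shares do not give the recovery for them. The SE of their line difference ran from 0.15 (second CD8A probe) to 0.49 (CD3E). Names came from the files or, by accession, from the Sscrofa11.1 gene table. Listed genes named were the 3 smallest p in T and NK cell lists and the 2 brightest in others; some genes these rules pick are counted but not reported here by name. Members and lists were chosen with earlier results of these data known. The labels give 8 pigs per line. The number of arrays limits the precision. Deviations of same-numbered pigs from their line means correlated above 0.1 in 3 of 8 pairs. This cannot exclude a pairing by number, which the labels do not state, and the main fits took the pigs as unpaired.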

Additional observations from a re-analysis of the deposited data

How the results depend on the processing

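No member probe passed an adjusted p of 0.05 between lines, between replicate sets, within a set or in the interaction under any alternative run. Normexp background correction moved the median line difference of all probes to -0.12 and the share below 0 to 68.3%, against 50%, and the members' median was -0.44, with 2 of 9 under an unadjusted p of 0.05, against 2.16% of all probes. Set differences turned under normexp for GZMK (0.046), CD3E (0.0078) and the second CD8A probe (0.055), the probes called between replicate sets fell to 17, against 1662, and were 865 without the filter on dim probes, and the median r of gene pairs was 0.934. The line difference of the second CD3G probe turned to -0.24 with normexp, -0.13 with array weights, -0.16 within slide 1 and -1.67 within slide 3. That of the first turned to 0.029 with array weights and 0.52 within slide 4, that of the second CD8A probe to 0.032 within slide 2, and that of the first CD8A probe to 0.38 within slide 4. The causes were not tested.

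Leaving out 1 array gave line differences from -0.34 to 0.087 for the first and from -0.12 to 0.40 for the second CD3G probe. It gave set differences from -0.24 to 0.33 for the second CD3G probe, from -0.10 to 0.23 for the second and from -0.00607 to 0.33 for the first CD3D probe, and an interaction from -0.62 to 0.15 for GZMK. Within replicates 1 to 4 it gave -0.18 to 0.17 for the first CD3D probe, -0.18 to 0.081 for the second, -0.86 to 0.27 for the second CD3G probe and -0.067 to 0.45 for CD2. Over all probes it gave 0 to 1 call between lines, 603 to 4790 between replicate sets and 3 to 5 within replicates 1 to 4, against 5. With the replicate block 0 probes were called between lines and within replicates 5 to 8, and 2 within replicates 1 to 4. Within replicates 5 to 8 that fit put 6 of 9 members under an unadjusted p of 0.05, against 5.79% of all probes. The best match in the other line was the same-numbered pig for 1 of 8 pigs, as a hint from the data only. The authors' deposited table, with 8 of the 9 probes, gave a members' median of -0.36. Leaving out low-RFI replicate 8 from the correlations, and it or high-RFI replicate 5 from the marker lists, was chosen after seeing the data. For the lists this gave -0.38 to 0.22 for ACTA1, -0.096 to 0.64 for CKM, -0.090 to 0.13 for C1QA, -0.075 to 0.011 for ADIPOQ and -0.00058 to 0.019 for PAX5. Dim signals limit all of these values.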
